A study of Mus musculus with 4 samples.

Results

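The nuclear genes of the mitochondrial respiratory chain and ATP synthase were followed in the livers of mice that lack the Cyp3a gene cluster. Members were the array probes whose RefSeq accession maps to a gene symbol that begins with Ndufa, Ndufb, Ndufc, Ndufs, Ndufv, Uqcr, Cox4 to Cox8 or Atp5, or that equals Sdha, Sdhb, Sdhc or Sdhd; Ndufaf assembly factors were left out. This gave 114 probes of 85 genes among 39429 probes on the array and 21153 named genes: 38 of complex I, 4 of complex II, 8 of complex III, 18 of complex IV and 17 of ATP synthase. Symbols alone decided which genes entered, but this set of symbols was chosen with earlier results of these data known. RefSeq also lists Ndufb1, Ndufb4b and Ndufb4c, for which no probe was named, and the subunits encoded in mitochondrial DNA were not analysed here.

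The respiratory chain is the set of protein complexes of the inner mitochondrial membrane that pass electrons from NADH and succinate to oxygen and pump protons as they do so. Complex I (NADH dehydrogenase) and complex II (succinate dehydrogenase) feed electrons through ubiquinone to complex III (the cytochrome bc1 complex), which hands them through cytochrome c to complex IV (cytochrome c oxidase), while ATP synthase makes ATP from the proton gradient. Most subunits are encoded in the nucleus, and hepatocytes, which are rich in mitochondria, use the chain to oxidise fatty acids and to supply ATP for glucose and urea synthesis.

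The study measured total liver RNA of 2 wild type mice and 2 mice labelled Cyp3a-/-, described as a knockout of the Cyp3a cluster, which encodes cytochrome P450 enzymes that oxidise drugs and steroids. Each liver was hybridised to its own 1-colour Agilent expression array, and the series text speaks of independent experiments on different animals. No agent or second allele is named for either group. Strain, sex, age, diet and the way the cluster was removed are not given in the sources used here. The comparison asks what the loss of the cluster does to liver transcripts.

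Levels are log2 processed spot intensity minus the 75th percentile of the same array, and each gene is represented by its brightest probe that passed the filter. The check of the labels held: Cyp3a11, the main Cyp3a transcript of mouse liver, stood at 7.94 and 8.09 in the wild type livers and at -6.98 and -6.93 in the Cyp3a-/- livers, where its probe was not well above background, so it was at least 7204-fold lower. All 7 measured hepatocyte markers exceeded background clearly on every array. The share of probes well above background was 54.4% to 56.4%. Over the features tested, Pearson's correlation was 0.992 for the pair of wild type arrays and 0.988 for the pair of Cyp3a-/- arrays. The wild type pair shared slide 1, whereas the Cyp3a-/- arrays sat on slides 2 and 3, so slide and genotype cannot be told apart. Because these are bulk livers, fewer cells of a type and less RNA per cell cannot be told apart either.

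No subunit gene passed the threshold. Of 82 subunit genes tested, 0 were called higher and 0 lower by limma at a Benjamini-Hochberg adjusted p under 0.05 over all 17403 features, of which 0.276% were called. The smallest adjusted p of a member, that of Cox7a1, was 0.274. At an unadjusted p under 0.05, 1 member lay higher (Atp5k) and 2 lower (Cox7a1 and Cox6b2), where 4.60% of all features lay higher and 5.42% lower at that level. The other 3 members, Cox7b2, Cox8b and Cox8c, did not pass the filter on dim probes, which asked that 1 or both genotypes have the probe well above background in each liver.

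Small positive differences ran through most subunits under the main scaling. The median log2 fold change (Cyp3a-/- minus wild type) of the 82 members was 0.16, or 1.11-fold, and 66 of 82 lay above 0, where 51.5% of all features did and the median of all features was 0.01. With quantile normalization, which forces the arrays to the same distribution, the members' median was 0.0036 and 43 of 82 lay above 0. Both Cyp3a-/- livers stood above both wild type livers for 46 members (56.1%), where 22.6% of all features did so. They stood below both for 3 (Ndufs7, Cox7a1 and Cox6b2), where 20.2% of all features did. Of the 883 features brighter than the median member, 440 stood above both and 37 below both. For the remaining 33 members the genotypes overlapped. The standard errors of the members' log2 fold changes ran from 0.17 to 0.38 with a median of 0.18, larger than the median difference itself. For 79 of the 82 the 95% interval of the difference lay within 2-fold in both directions; the exceptions were Cox7a1, Cox6b2 and Ndufa4l2.

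The Cyp3a-/- livers also differed from each other. Relative to each gene's mean over the 4 arrays, the median member stood at -0.09 in wild type 1, -0.07 in wild type 2, 0.05 in Cyp3a-/- 1 and 0.13 in Cyp3a-/- 2. Cyp3a-/- 2 was the highest of the 4 livers for 50 members, beside 26.5% of all features and 497 of the 883 features brighter than the median member. Cyp3a-/- 1 was the lowest for 17 members, beside 32.5% of all features and 216 of those 883. The median absolute log2 difference over members was 0.09 between the wild type livers, 0.15 between the Cyp3a-/- livers and between 0.19 and 0.22 for pairs of livers of different genotype.

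**Figure D1:**
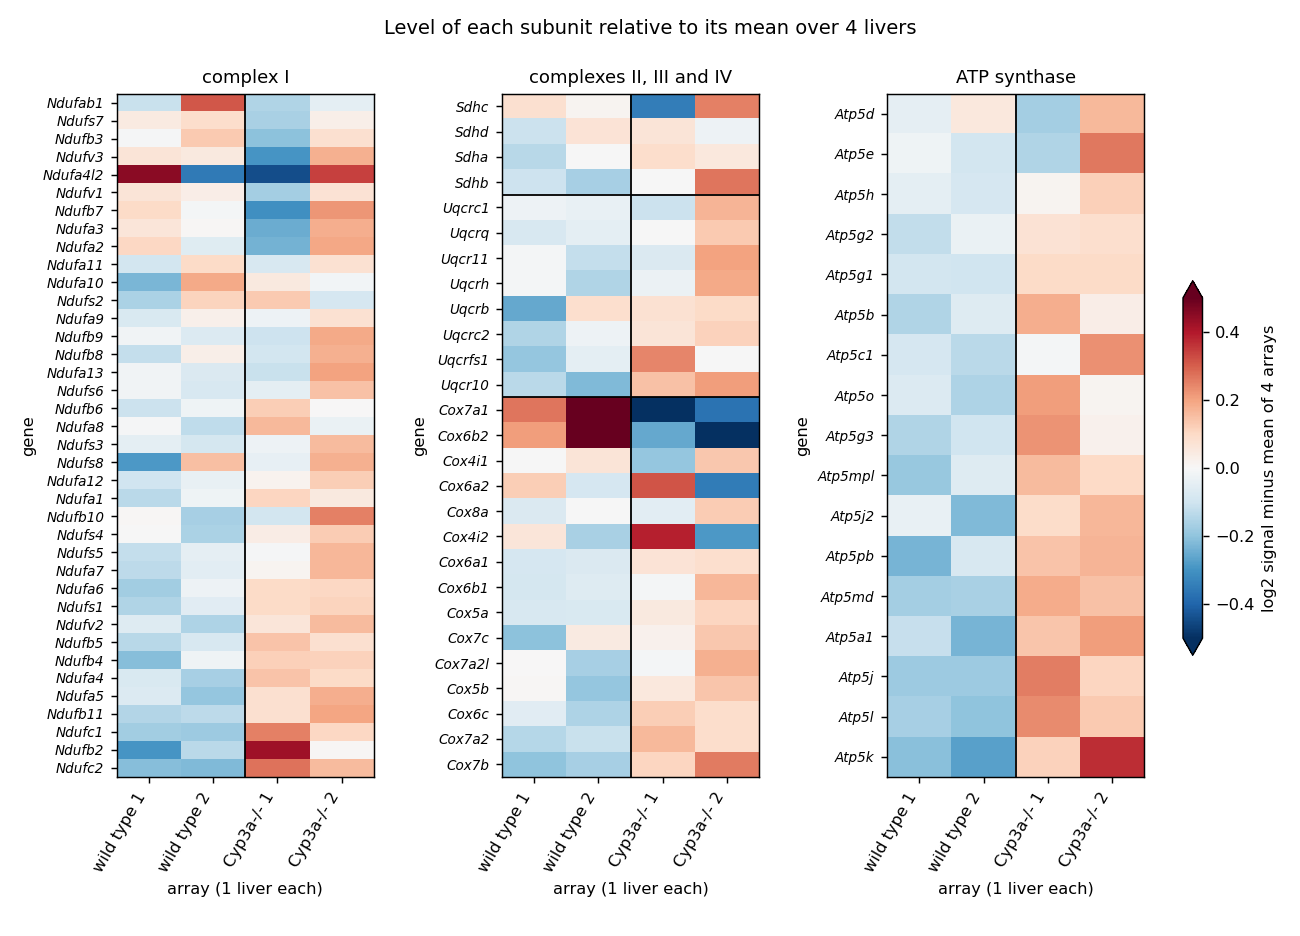
Each tile is a subunit gene in 1 liver, coloured by log2 signal minus that gene's mean over the 4 arrays, with colours capped at 0.5 in either direction and genes sorted within each complex by log2 fold change. Most of the 82 genes are paler or bluer in the wild type columns and redder in Cyp3a-/- 2. Cox7a1 and Cox6b2 run the other way. The lowest value lies in Cyp3a-/- 1 and the highest in Cyp3a-/- 2 for 12 genes. The same holds for 137 of the 883 features brighter than the median subunit. With quantile normalization 43 of 82 rather than 66 lie above 0.

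Complex I takes electrons from NADH. Of its 38 genes 0 were called, 28 lay above 0 with a median of 0.13, and with quantile normalization 16 of 38 lay above 0 with a median of -0.017. Under the main scaling 51.5% of all features lay above 0, and 80.2% of the 883 features brighter than the median member. The largest differences were those of Ndufc2, Ndufb2 and Ndufc1, which are accessory subunit genes of the membrane arm. This did not hold for all genes of that kind: of 10 Ndufb genes 8 lay above 0, and Ndufb3 (-0.12) and Ndufb7 (-0.08) lay below. Ndufc2 stood at 4.85 and 4.84 in the wild type livers and at 5.33 and 5.22 in the Cyp3a-/- livers. The genotypes were apart, with a log2 difference of 0.43 ± 0.17 (SE, n = 2 per genotype; limma adjusted p = 0.500) that shrank to 0.30 with quantile normalization. Ndufb2 stood at 4.40 and 4.56 against 5.12 and 4.70. Its difference was 0.43 ± 0.22 (limma adjusted p = 0.584), and Cyp3a-/- 1 held most of it. Ndufc1 stood at 5.40 and 5.39 against 5.83 and 5.68, a difference of 0.36 ± 0.18 (limma adjusted p = 0.582) that was 0.21 with quantile normalization.

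The catalytic arm of complex I, which binds NADH and holds the iron-sulfur clusters, was mixed as well. Ndufs1, its largest iron-sulfur subunit, stood at 4.92 and 5.01 in wild type and at 5.16 and 5.18 in Cyp3a-/- liver. The groups did not overlap, but the difference of 0.21 ± 0.17 did not pass (limma adjusted p = 0.719) and was 0.074 with quantile normalization. Ndufv1, which binds NADH and flavin, stood at 6.44 and 6.41 against 6.20 and 6.45. Here Cyp3a-/- 1 was the lowest and Cyp3a-/- 2 the highest of the 4 livers, and the difference was -0.10 ± 0.19. The same order, with the Cyp3a-/- livers at both ends, was seen for Ndufv3, Ndufb7, Ndufa3, Ndufa2, Ndufb9 and Ndufa13. Outside complex I it was seen for Sdhc, Uqcrc1, Cox4i1, Atp5d and Atp5e. These 12, Ndufv1 among them, were picked out after their values were seen. That order was held by 9.34% of all features and by 137 of the 883 features brighter than the median member. Ndufb7, for example, had 5.95 and 5.85 in wild type, 5.55 in Cyp3a-/- 1 and 6.08 in Cyp3a-/- 2.

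By name group, 6 of 15 Ndufa genes, 5 of 10 Ndufb genes, 2 of 2 Ndufc genes, 4 of 8 Ndufs genes and 1 of 3 Ndufv genes stood higher in both Cyp3a-/- livers than in both wild type livers, beside 22.6% of all features and 49.8% of the features brighter than the median member. Ndufa4, named as a complex I subunit but since assigned to complex IV, stood at 6.12 and 6.03 against 6.33 and 6.29, a difference of 0.24 ± 0.17. Its paralog Ndufa4l2, known as a gene induced by low oxygen, varied more than any other member. It stood at -0.79 and -1.59 in wild type and at -1.68 and -0.89 in Cyp3a-/- liver, so the genotypes overlapped. The difference was -0.10 ± 0.38. Ndufab1, the mitochondrial acyl carrier protein, gave the lowest difference of complex I, -0.20 ± 0.21, with wild type 2 at 1.95 and the other livers between 1.49 and 1.59.

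Complex II oxidises succinate and is also an enzyme of the citric acid cycle. None of its 4 genes was called (0 of 4), 3 lay above 0 with a median of 0.09, and with quantile normalization 1 of 4 lay above 0 with a median of -0.057. Main-scaling shares above 0 were 51.5% of all features and 80.2% of those brighter than the median member. Sdhb, the iron-sulfur subunit, stood at 6.68 and 6.61 in wild type and at 6.78 and 7.05 in Cyp3a-/- liver, a difference of 0.27 ± 0.19 (limma adjusted p = 0.675) that was 0.092 with quantile normalization. Sdha, the flavoprotein, stood at 5.25 and 5.38 against 5.47 and 5.44, a difference of 0.14 ± 0.18 that became -0.0079 with quantile normalization. The other subunits are membrane anchors. Sdhd stood at 5.46 and 5.63 against 5.63 and 5.54, with a difference of 0.04 ± 0.18 that became -0.11 with quantile normalization. For Sdhc the probes disagreed: the brighter read 4.46 and 4.39 against 4.03 and 4.63 (-0.09 ± 0.25), and the dimmer 4.12 and 4.18 against 4.49 and 4.43, a difference of 0.31. It was the one gene among 22 with several usable probes whose probes differed in sign, so its direction is uncertain.

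Complex III passes electrons from ubiquinol to cytochrome c. All 8 genes lay above 0 under the main scaling, with a median of 0.17, but 0 were called. Of all features 51.5% lay above 0, and of the 883 brighter than the median member 80.2%. The genotypes overlapped for 4 genes. For the other 4 both Cyp3a-/- livers were higher, beside 22.6% of all features and 49.8% of the 883. With quantile normalization 3 of 8 lay above 0 with a median of -0.0086. Uqcr10, a small accessory subunit, stood at 6.32 and 6.23 in wild type and at 6.60 and 6.66 in Cyp3a-/- liver. Its difference was 0.36 ± 0.17 (limma adjusted p = 0.580), and 0.18 with quantile normalization. Uqcrfs1, the Rieske iron-sulfur protein, stood at 5.36 and 5.51 against 5.80 and 5.55, a difference of 0.24 ± 0.19 (0.10 with quantile normalization) in which Cyp3a-/- 2 was close to wild type 2. The core proteins gave 0.06 ± 0.19 for Uqcrc1, which became -0.050 with quantile normalization, and 0.18 ± 0.17 for Uqcrc2, which became 0.039. The Uqcrc2 probe is printed in 10 spots on each array, which gave means of 5.56 and 5.68 in wild type and 5.77 and 5.82 in Cyp3a-/- liver with SDs between spots of 0.030 to 0.049. Spread between spots of an array was thus smaller than the distance between the wild type livers. Cyc1, the cytochrome c1 of this complex, falls outside the symbol rule and stood at 5.63 and 5.86 against 5.68 and 5.83, a difference of 0.01 ± 0.19 that became -0.13 with quantile normalization and -0.0038 with normexp background correction.

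**Figure D2:**
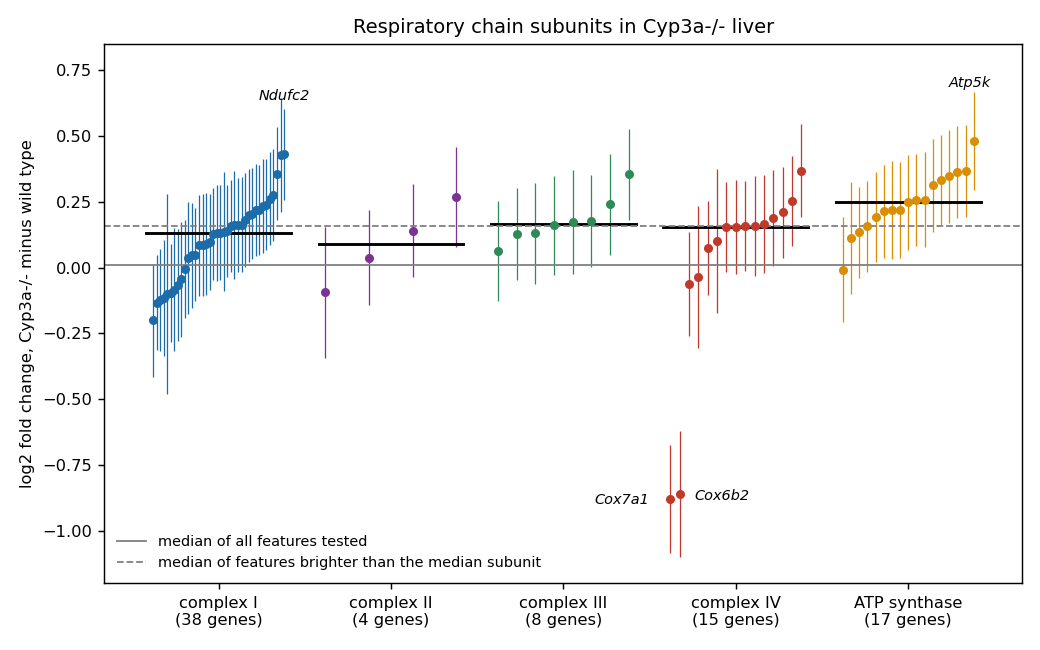
Points are log2 fold changes (Cyp3a-/- minus wild type) of the 82 subunit genes with bars of 1 SE, black bars the median of each complex, and horizontal lines the medians of all features and of features brighter than the median subunit. Cox7a1 at -0.88 and Cox6b2 at -0.86 stand apart below the rest, and the medians run from 0.09 for complex II to 0.25 for ATP synthase under this scaling; with quantile normalization those of complexes I, II and III lie below 0.

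Complex IV reduces oxygen to water, and several of its subunits come in tissue isoforms. Of 15 genes tested 0 were called, 11 lay above 0 with a median of 0.15, and with quantile normalization 9 of 15 did with a median of 0.028. Beside the 11 stand 51.5% of all features and 80.2% of those brighter than the median member above 0. The lowest differences of all members belonged to isoforms that are best known outside the liver. Cox7a1, the isoform of heart and skeletal muscle, stood at 1.04 and 1.38 in wild type and at 0.26 and 0.40 in Cyp3a-/- liver. The groups lay well apart, with a log2 difference of -0.88 ± 0.20 (SE, n = 2 per genotype; limma adjusted p = 0.274). Cox6b2, the testis isoform, stood at -1.46 and -1.01 against -1.92 and -2.27. Its difference was -0.86 ± 0.24 (limma adjusted p = 0.343), and its probe, like that of Cox7a1, was well above background on all 4 arrays. Over the 14 alternative settings the difference of Cox7a1 ran from -1.05 to -0.71 (limma adjusted p 0.118 to 0.879), and that of Cox6b2 from -1.08 to -0.51 (limma adjusted p 0.159 to 0.951). The value of -0.51 for Cox6b2 came with normexp background correction.

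The general counterparts of these isoforms did not share that direction. Cox7a2, the isoform used in liver, stood at 5.71 and 5.73 against 6.01 and 5.94, a difference of 0.25 ± 0.17 (0.10 with quantile normalization), and Cox6b1 at 3.61 and 3.63 against 3.69 and 3.86, a difference of 0.15 ± 0.18 (0.082 with quantile normalization). The difference of 2 probes within an array is not moved by any scaling factor of that array. Isoform ratios were therefore also taken array by array. A shift that depends on signal level is not removed, since Cox7a1 (mean level 0.77) and Cox6b2 (-1.67) are far dimmer than Cox7a2 (5.85) and Cox6b1 (3.70). Relative to its mean over the 4 arrays, the log2 ratio of Cox7a1 to Cox7a2 was 0.41 and 0.72 in wild type and -0.67 and -0.46 in Cyp3a-/- liver, a change of -1.13. The log2 ratio of Cox6b2 to Cox6b1 was 0.30 and 0.72 against -0.25 and -0.77, a change of -1.02. In both the genotypes were apart, as they had to be, since the genes of each pair already stood apart in opposite directions. The exact 2-sided permutation p was thereby fixed at 0.333, the smallest that 2 against 2 livers can give, and adds nothing to the single genes. With normexp the single genes differed by -0.85 (Cox7a1) and 0.25 (Cox7a2), and by -0.51 (Cox6b2) and 0.14 (Cox6b1). Of 8 isoform pairs compared, the other 6 had overlapping genotypes: Cox4i2 to Cox4i1 changed by 0.16, Cox6a2 to Cox6a1 by -0.19, Ndufa4l2 to Ndufa4 by -0.34, Cox7a2l to Cox7a2 by -0.09, Atp5g2 to Atp5g1 by -0.03 and Atp5g3 to Atp5g1 by 0.06.

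**Figure D3:**
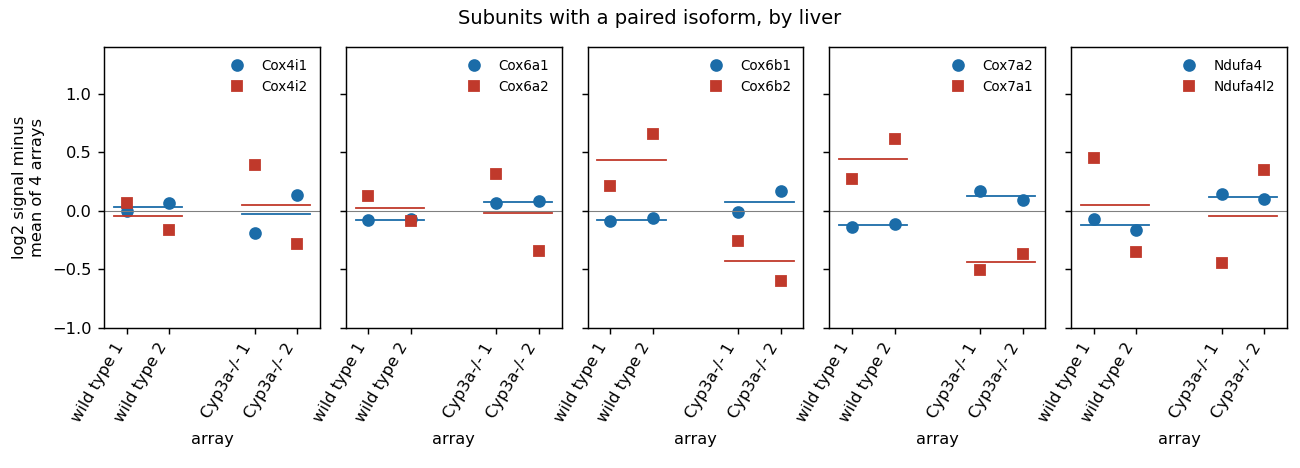
Panels show 5 pairs of a widely used isoform (blue circles) and a tissue-restricted or inducible isoform (red squares), as log2 signal minus the gene's mean over the 4 arrays, by liver, with lines at the genotype means. The red squares of Cox6b2 and Cox7a1 lie above the circles in both wild type livers and below them in both Cyp3a-/- livers, and in the other 3 panels the genotypes overlap for the red squares.

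Promoters of both pairs are shown because these genes gave the members' largest differences while their partners did not follow. Each run holds the 250 bases before a start that the RefSeq table of assembly GRCm38.p6 lists for the gene, written 5′ to 3′ on the gene's strand, with capitals at a match to one of the motifs searched. For Cox7a2 that start lies inside the gene's annotated span, and for the other 3 it is the edge of the span.
Cox7a1 promoter, chr7:30183921-30184170, plus strand: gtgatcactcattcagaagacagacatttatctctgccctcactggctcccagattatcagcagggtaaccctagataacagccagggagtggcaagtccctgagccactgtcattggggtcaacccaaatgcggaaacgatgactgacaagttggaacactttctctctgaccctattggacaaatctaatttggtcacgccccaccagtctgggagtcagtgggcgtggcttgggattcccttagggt
Cox7a2 promoter, chr9:79759854-79760103, minus strand: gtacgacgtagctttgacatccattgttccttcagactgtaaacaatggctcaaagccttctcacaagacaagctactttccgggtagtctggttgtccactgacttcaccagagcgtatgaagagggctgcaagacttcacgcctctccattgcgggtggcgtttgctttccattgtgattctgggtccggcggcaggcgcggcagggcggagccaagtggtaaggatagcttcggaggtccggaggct
Cox6b2 promoter, chr7:4753095-4753344, minus strand: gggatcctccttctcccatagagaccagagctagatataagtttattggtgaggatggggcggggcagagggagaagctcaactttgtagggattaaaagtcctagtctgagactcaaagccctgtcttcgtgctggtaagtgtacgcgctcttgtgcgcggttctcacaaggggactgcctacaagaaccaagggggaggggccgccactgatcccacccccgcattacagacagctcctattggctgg
Cox6b1 promoter, chr7:30626115-30626364, minus strand: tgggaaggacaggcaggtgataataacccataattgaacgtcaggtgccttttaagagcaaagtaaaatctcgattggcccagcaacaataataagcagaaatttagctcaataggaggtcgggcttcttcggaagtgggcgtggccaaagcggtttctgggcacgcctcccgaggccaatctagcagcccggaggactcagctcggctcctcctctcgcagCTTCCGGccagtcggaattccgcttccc
The motifs were the core of the respiratory gene activator NRF1 (shown in capitals in the Atp5k promoter further on), CCGGAAG for ETS factors such as GABPA, AAGATGGCG for YY1 and AAGGTCA for estrogen-related receptors, each on both strands. The Cox6b1 window holds an ETS match, CTTCCGG, 28 to 22 bases before the start. The other 3 windows hold no match, which says only that these letters are not in these 250 bases.

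The remaining isoforms of complex IV showed small or inconsistent differences. Cox4i1, the general form of the subunit that regulates the enzyme's response to ATP, stood at 7.46 and 7.52 in wild type and at 7.26 and 7.59 in Cyp3a-/- liver (-0.06 ± 0.20). Cox4i2, a form known from lung, stood at -2.11 and -2.33 against -1.78 and -2.46 (0.10 ± 0.27). For both the Cyp3a-/- livers lay on either side of the wild type livers. Cox6a1 differed by 0.15 ± 0.17, with the wild type livers at 8.62 and 8.63 and the Cyp3a-/- livers at 8.77 and 8.79. Its heart and muscle counterpart Cox6a2 was dim, at -3.93 and -4.14 against -3.74 and -4.40 (-0.04 ± 0.27, and 0.020 with normexp). Cox8a differed by 0.08 ± 0.18, which became -0.13 with quantile normalization, and Cox7a2l, which helps complexes join into supercomplexes, by 0.17 ± 0.19. The probe of Cox8b, another muscle isoform, was well above background on 1 array, and those of the testis genes Cox7b2 and Cox8c on 0. Cox7b, a subunit without which complex IV assembles poorly, gave the largest positive difference of the complex: 6.26 and 6.30 against 6.57 and 6.72, or 0.37 ± 0.18 (limma adjusted p = 0.576; 0.19 with quantile normalization).

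Markers of other tissues were set beside Cox7a1 and Cox6b2. Of 12 skeletal muscle markers, 6 were well above background on no array (Actn3, Ckm, Mb, Myh1, Myh4 and Tnnt3). The summed signal of the muscle list, relative to the array's 75th percentile on a linear scale, was 0.483 and 0.518 in wild type and 0.484 and 0.524 in Cyp3a-/- liver, and the genotypes overlapped. None of 6 adipose tissue markers was well above background on any array (6 of 6 on none). Summed signals of the lists for hepatocytes, pericentral hepatocytes, lymphocytes, neutrophils, sinusoidal endothelium, stellate cells and cholangiocytes also overlapped between the genotypes. The summed signals of the erythroid, macrophage and periportal lists, which the brightest markers carry, did not overlap. Those of 7 erythroid markers were 304 and 350 in wild type against 157 and 252, those of 6 macrophage markers 55.7 and 57.6 against 45.3 and 49.9, and those of 7 periportal hepatocyte markers 301 and 317 against 327 and 399. Single markers did not all follow their sum. Of 6 erythroid markers tested 5 were lower in both Cyp3a-/- livers and Alas2 overlapped (log2 difference 0.0071), and of 6 macrophage markers 4 were lower, Adgre1 overlapped and Vsig4 was higher (0.16), beside 20.2% of all features lower and 22.6% higher. Of 7 periportal markers 4 were higher, beside 22.6% of all features and 49.8% of the features brighter than the median member. The other 3 overlapped, among them Hsd17b13 (-0.16). These single markers were named after their values were seen. Of the macrophage markers 6 of 6, and of the periportal markers 7 of 7, were well above background on all 4 arrays. Their part in the differences of the subunit genes was not tested.

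ATP synthase couples proton flow through its membrane part, Fo, to ATP synthesis in its catalytic head, F1. It had the highest median of the complexes, 0.25 with 16 of 17 genes above 0, but 0 genes were called. Beside the 16 stand 51.5% of all features and 80.2% of those brighter than the median member above 0. With quantile normalization the median was 0.074 with 14 of 17 above 0. Both Cyp3a-/- livers stood above both wild type livers for 15 of 17 genes, all but Atp5d and Atp5e, beside 22.6% of all features and 49.8% of those brighter than the median member. The median deviation of the 17 genes from their 4-array means was -0.12 and -0.10 in wild type and 0.14 and 0.13 in Cyp3a-/- liver. Within the enzyme the 5 F1 genes stood at -0.01 in Cyp3a-/- 1 and 0.21 in Cyp3a-/- 2, and the other 12 at 0.15 and 0.11. Whether these gene groups differ was not tested.

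Atp5k, the e subunit through which the enzyme forms dimers, gave the largest positive difference of all members. It stood at 6.26 and 6.20 in wild type and at 6.59 and 6.84 in Cyp3a-/- liver, a difference of 0.48 ± 0.19 (SE, n = 2 per genotype; limma adjusted p = 0.491). Its second probe read 5.80 and 5.80 against 6.25 and 6.33, a difference of 0.49, and with quantile normalization the log2 fold change of Atp5k was 0.31. Atp5l, the g subunit next to it in the membrane, stood at 6.55 and 6.52 against 6.96 and 6.85 (0.37 ± 0.17, limma adjusted p = 0.567; 0.19 with quantile normalization). Atp5j, coupling factor 6 of the stalk, stood at 5.44 and 5.44 against 5.87 and 5.73 (0.36 ± 0.18, limma adjusted p = 0.578; 0.23 with quantile normalization). Both Cyp3a-/- livers stood above both wild type livers for each of these 3 genes, beside 22.6% of all features and 49.8% of those brighter than the median member. The 3 were named for having the largest differences of the enzyme, so this adds little to those differences.

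In the F1 head, Atp5a1 (the alpha subunit) stood at 6.39 and 6.27 against 6.64 and 6.71, a difference of 0.35 ± 0.18 that was 0.18 with quantile normalization, and Atp5b (the catalytic beta subunit) at 7.71 and 7.80 against 8.05 and 7.90, a difference of 0.21 ± 0.18 that was 0.0024 with quantile normalization. The 5 F1 genes had a median of 0.21 and 3 of them were apart, with both Cyp3a-/- livers higher. The other 12 genes had a median of 0.26 and all 12 were apart in that direction, beside the same 22.6% of all features. Among them the genes Atp5g1, Atp5g2 and Atp5g3, which encode the same mature c subunit of the rotor from separate loci, differed by 0.19 ± 0.17, 0.16 ± 0.17 and 0.25 ± 0.18, and with quantile normalization by 0.013, 0.0034 and 0.020. The Atp5g1 values were the tightest of the 3, at 6.92 and 6.92 against 7.11 and 7.11.

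The promoter of Atp5k is shown as the member with the largest positive difference and an NRF1 match, in capitals, 50 to 41 bases before the start (250 bases, RefSeq assembly GRCm38.p6, 5′ to 3′ on the gene's strand).
Atp5k promoter, chr5:108434400-108434649, minus strand: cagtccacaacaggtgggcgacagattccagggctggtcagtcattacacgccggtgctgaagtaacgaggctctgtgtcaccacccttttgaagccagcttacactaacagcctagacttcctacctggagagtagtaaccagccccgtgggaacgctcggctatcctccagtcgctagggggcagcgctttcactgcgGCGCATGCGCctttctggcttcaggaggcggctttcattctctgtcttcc
NRF1 matches were found in 13 of the 69 members with a promoter in the RefSeq table, or 18.8%, against 4.23% of 27025 genes. ETS matches (CCGGAAG) were found in 12 of 69, or 17.4%, against 7.83%, those for estrogen-related receptors (AAGGTCA) in 5, or 7.25%, against 4.70%, and YY1 matches (AAGATGGCG) in 1, or 1.45%, against 0.710%. For comparison, TATAAA was found in 7 of 69 members, or 10.1%, and in 14.3% of genes. Members' windows had a median GC content of 56.2%, and those of all genes 52.4%. The median log2 fold change was 0.15 for the 13 members with an NRF1 match and 0.16 for the 54 tested members without one. It was 0.13 for the 12 with an ETS match and 0.16 for the 55 without, 0.25 for the 5 with a match for estrogen-related receptors and 0.16 for the 62 without, and 0.36 for Atp5j, the 1 member with a YY1 match. With so few members these medians are a description.

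The differences were read against signal level, since subunit genes are among the brightest on the array. The median member had a mean level of 5.86, and 883 of all 17403 features were brighter than that. Their median log2 fold change was 0.16, 708 of them (80.2%) lay above 0, and in 49.8% both Cyp3a-/- livers stood above both wild type livers; the members' figures were 0.16, 80.5% and 56.1%. In bins of level the median of all features went from -0.037 at levels of -5 to -4 to 0.18 at levels of 7 to 8, and was 0.10 for the 94 features at 8 to 9 and 0.081 for the 22 at 9 to 10. The 39 features below -5 had a median of 0.71. With quantile normalization the median of the 883 bright features was -0.016, that of all features -0.016 and that of members 0.0036. Under the main scaling the members' median was close to that of the bright features, which include the brighter members. With quantile normalization it was close too, but that step forces the arrays to the same distribution. A median near 0 for the brightest features was therefore largely set by the method. It was not tested whether this level-dependent shift came from the animals or from the arrays.

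**Figure D4:**
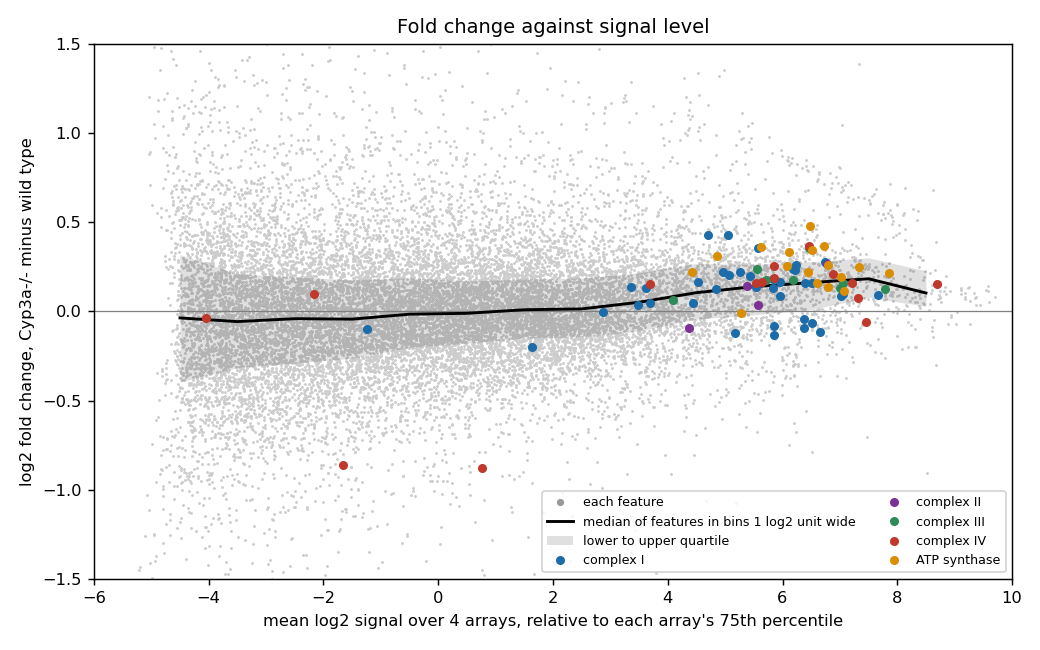
Grey points are all features by mean log2 signal (x) and log2 fold change, Cyp3a-/- minus wild type (y, shown to 1.5 in either direction), with the median and quartiles in bins 1 log2 unit wide that hold at least 50 features, and subunit genes coloured by complex. The median line reaches 0.18 at levels of 7 to 8 and 0.10 at 8 to 9, most subunit genes lie close to it, and Cox7a1 and Cox6b2 lie far below it; with quantile normalization the bright features' median is -0.016.

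**Figure D5:**
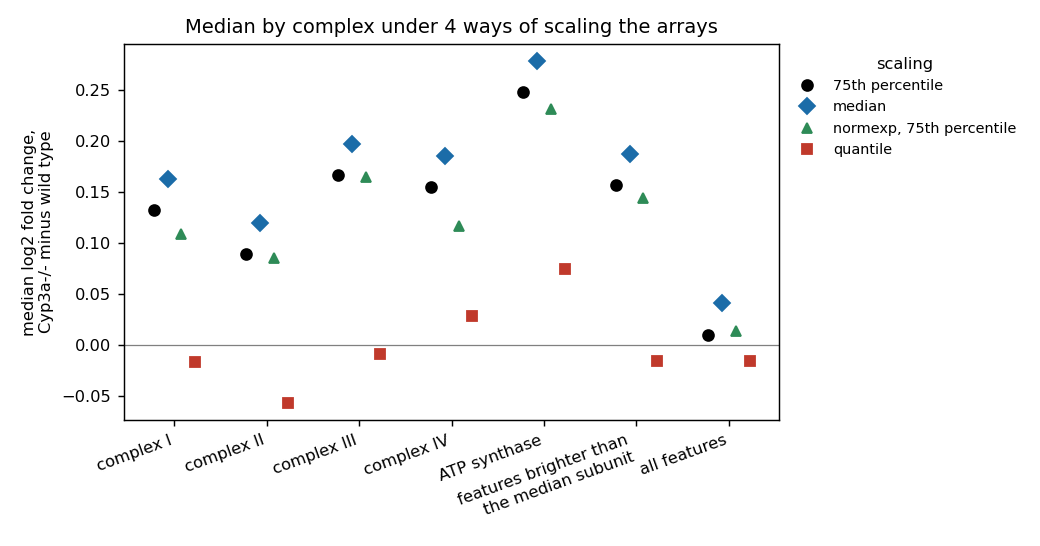
Points are the median log2 fold change (Cyp3a-/- minus wild type) of each complex, of features brighter than the median subunit and of all features under 4 ways of scaling the arrays. Quantile normalization (red squares) gives medians from -0.057 to 0.074 for the complexes, below 0 for complexes I, II and III, while the other scalings give medians above 0 for every complex.

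Repeated probes of a gene allowed a further look. Of the 114 member probes 111 passed the filter, and 29 of these were dimmer probes of genes that a brighter one represented. The 29 come from 22 genes, 4 of them from Atp5l alone, so they are not separate members. Of the 29, 28 lay above 0, with a median difference of 0.32. Both Cyp3a-/- livers stood above both wild type livers for 24 of them, beside 22.6% of all features. Among features brighter than the members' lower quartile that share was 47.1%, though not all of the 29 probes are that bright. Cyp3a-/- 1 was the highest of the 4 livers for 15 of them and Cyp3a-/- 2 for 12, whereas Cyp3a-/- 2 was the highest for 50 of the 82 brightest probes. Some dimmer probes, picked out after their values were seen, read far higher in Cyp3a-/- 1 than in any other liver. The dimmer Atp5c1 probe read 3.45, 3.41 and 3.57 in the other livers and 4.80 in Cyp3a-/- 1, while the brighter read 6.36 and 6.31 in wild type and 6.43 and 6.67 in Cyp3a-/- liver. The dimmest Atp5l probe read 3.77, 3.54 and 3.86 against 5.07 in Cyp3a-/- 1, and the dimmer Uqcrq probe 5.46, 5.34 and 5.49 against 6.32. Subunit genes have processed copies elsewhere in the genome, and whether a probe also binds a copy or another transcript form was not tested.

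Lists of genes that build, feed or control the chain likewise had 0 called in each, and medians above 0. Both Cyp3a-/- livers stood above both wild type livers for 31.25% to 50% of a list, beside 56.1% of members and 22.6% of all features. With quantile normalization the list medians were 0.020 to 0.075, and the members' median was 0.0036. For the counts above 0 that follow, the share of all features under the main scaling was 51.5%. Of 48 assembly factor genes tested 33 lay above 0 with a median of 0.09 (0.075 with quantile normalization), and 3 lay higher at an unadjusted p under 0.05, beside 4.60% of all features. Sdhaf4, which helps assemble complex II, stood at 2.07 and 2.03 in wild type and at 2.50 and 2.62 in Cyp3a-/- liver, a difference of 0.51 ± 0.17 (limma adjusted p = 0.441). Coa6, a copper-handling factor of complex IV, stood at 1.74 and 1.80 against 2.33 and 2.21, a difference of 0.50 ± 0.17 (limma adjusted p = 0.452). Cox20, a complex IV chaperone and the third of these, differed by 0.52 ± 0.18. With quantile normalization the differences of Sdhaf4 and Coa6 were 0.48 and 0.47.

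Of 16 genes of ubiquinone synthesis, cytochrome c and the electron transfer flavoprotein, 11 lay above 0 with a median of 0.08 (0.024 with quantile normalization). Coq10b, a ubiquinone-binding protein, differed by 0.67 ± 0.29, which was 0.32 without wild type 1 and 1.02 without wild type 2. The ubiquinone enzyme Coq2 differed by 0.31 ± 0.17 and Cycs, cytochrome c itself, by 0.20 ± 0.19 (0.064 with quantile normalization). Of 18 genes of pyruvate dehydrogenase and the citric acid cycle, which supply NADH and succinate, 15 lay above 0 with a median of 0.17 (0.020 with quantile normalization). The pyruvate dehydrogenase subunits Pdha1 and Pdhx differed by 0.33 ± 0.19 and 0.25 ± 0.17. Of 77 mitochondrial ribosomal protein genes 55 lay above 0 with a median of 0.08 (0.027 with quantile normalization), with Mrps14 at 0.40 ± 0.19 and Mrpl28 at -0.27 ± 0.17.

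Of 21 regulators of respiratory and mitochondrial genes, 15 lay above 0 with a median of 0.10 (0.056 with quantile normalization). Esrra, the estrogen-related receptor that acts with the coactivator PGC-1alpha, stood at 2.75 and 2.83 in wild type and at 3.25 and 3.06 in Cyp3a-/- liver, a difference of 0.37 ± 0.18 (limma adjusted p = 0.583). Ppargc1a, which encodes that coactivator, stood at -0.37 and -1.35 against -1.02 and -0.52, so the genotypes overlapped (0.09 ± 0.37). Nrf1 stood at -0.50 and -0.80 against -0.99 and -0.98, a difference of -0.33 ± 0.19 that ran from -0.48 to -0.19 with 1 array left out (-0.19 without wild type 1). Tfam, the packaging and transcription factor of mitochondrial DNA, differed by 0.08 ± 0.19. Polg2, the accessory subunit of the mitochondrial DNA polymerase, differed by 0.55 ± 0.23, which was 0.82 without wild type 1 and 0.29 without wild type 2.

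Of 8 genes for carriers of ADP, ATP, phosphate and protons, 6 lay above 0 with a median of 0.16 (0.050 with quantile normalization), and 2 lay lower at an unadjusted p under 0.05, beside 5.42% of all features. These were the uncoupling protein genes Ucp2 and Ucp3, members of a family of proton and metabolite carriers. Ucp2 stood at -1.58 and -1.29 in wild type and at -2.37 and -2.10 in Cyp3a-/- liver, a difference of -0.80 ± 0.21 (limma adjusted p = 0.321), which was -0.45 with normexp. Ucp3, the form best known from muscle, stood at -1.87 and -1.37 against -2.29 and -2.37, a difference of -0.71 ± 0.23 (limma adjusted p = 0.407), which was -0.35 with normexp. On the main scale the genotypes of both genes were apart, and neither passed over all features.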

How the data were processed

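Total RNA of 2 wild type and 2 Cyp3a-/- livers was labelled with Cy3 and hybridised to 1-colour arrays, per the labels. Per the submitters' processing notes, scanner output came from Agilent Feature Extraction 11.5.1.1. As deposited, the processed intensity has its background subtracted and no normalization across arrays. Median spot and background intensity and flags of 0 or 1 were deposited beside it. The authors' deposited table of log2 values, whose scale, centring and direction are not stated, matched log2 processed intensity minus the 75th percentile and centred on each probe's median (r = 1.00; 39417 probes, 12 not listed). Its column medians were 0.06, -0.07, -0.02 and 0.02.

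Control spots and 113 to 148 outlier spots per array were left out, and 0 spots were saturated. Each array's 75th percentile (308 to 352 intensity units) was subtracted on the log2 scale. A probe was kept if 1 or both genotypes had it well above background in each liver (21505), and the brightest kept probe stood for each gene, giving 17403 features. RefSeq accessions, without version, named 28025 of 39429 probes through a table of GRCm38.p6 genes, and 11404 had no symbol. The array design names mm9, so promoter coordinates are the RefSeq table's own. The fit used limma 3.58.1 under R 4.3.3 (lmFit, eBayes, 2-sided, Benjamini-Hochberg over all features, threshold 0.05), with 3.54 prior and 2 residual degrees of freedom, after a test on simulated data. For Cyp3a11, whose probe was not well above background in Cyp3a-/- liver, the fold is a bound: the wild type mean was set against the mean of a floor for the Cyp3a-/- arrays, namely the dimmest probe still well above background on that array or the probe itself, whichever was brighter. The authors' files give no unused per-sample column (0).

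Alternatives were median scaling, quantile normalization, normexp (offset 50, on median spot and background intensity, as no mean spot intensity was used here), no filter, a filter on all 4 arrays, the mean of a gene's probes, the replicate number as a block, slide as a random block, the deposited table, and leaving out each array. Isoform ratios were tested by exact permutation. Members and lists were chosen with earlier results of these data known, and lists are described by counts and medians without a test. Named with values were, per complex, the 3 largest differences (all 4 of complex II), tissue isoforms, core subunits, genes whose probes differ in sign, and per list the 2 smallest p-values plus set regulators. Other named genes were chosen after their values were seen. With 2 livers per genotype, p-values rest largely on the spread of all genes. The level of 1 marker gene is not reported here.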

Additional observations from a re-analysis of the deposited data

How the results depend on the processing

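In all of 14 alternative settings, 0 subunit genes passed limma's threshold. The count over all features, 48, became 659 with median scaling, 13 without a filter on dim probes, 9 with a filter on all 4 arrays and 7 to 506 with 1 array left out (8 without wild type 1, 7 without wild type 2, 94 without Cyp3a-/- 1 and 506 without Cyp3a-/- 2). No filter enlarges the set tested to 32176 features; the cause of the other shifts was not tested. With quantile normalization the median log2 fold change was 0.0036 for all members, -0.017 for complex I, -0.057 for complex II, -0.0086 for complex III, 0.028 for complex IV and 0.074 for ATP synthase. Median scaling gave 0.19 for complex IV and 0.28 for ATP synthase, and normexp 0.12 and 0.23. With 1 array left out the medians ran from 0.13 to 0.20 for all members, 0.073 to 0.21 for complex I, 0.011 to 0.17 for complex II, 0.11 to 0.20 for complex III, 0.11 to 0.18 for complex IV and 0.24 to 0.29 for ATP synthase.

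With quantile normalization 43 of 82 members lay above 0, against 66 under the main scaling, and not all that turned are listed here. Among the genes named by the rules given above, signs turned with quantile normalization for Sdha (-0.0079), Sdhd (-0.11), Cox8a (-0.13), Uqcrc1 (-0.050) and Cyc1 (-0.13). Signs turned with normexp for Cox6a2 (0.020) and Cyc1 (-0.0038), and with the mean of all probes for Sdhc (0.11). They also turned when 1 array was left out, within ranges of -0.39 to 0.21 for Sdhc, -0.050 to 0.13 for Sdhd, -0.23 to 0.10 for Cox4i1, -0.24 to 0.44 for Cox4i2, -0.37 to 0.29 for Cox6a2, -0.015 to 0.17 for Cox8a, -0.50 to 0.30 for Ndufa4l2, -0.22 to 0.026 for Ndufv1, -0.078 to 0.20 for Uqcrc1, -0.11 to 0.13 for Cyc1, -0.40 to 0.58 for Ppargc1a and -0.041 to 0.19 for Tfam. The cause was not tested.

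With the replicate number as a block 58 features and 0 members were called. The number is not shown to pair the livers: deviations of same-numbered livers correlated at -0.10, and the crossed pairing, chosen after seeing the data, gave 56 calls and 0 members. With slide as a random block (correlation -0.20) 63 features were called. With 2 arrays per genotype, differences the size of the members' median lie within 1 SE.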

Other observations

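The ADP/ATP carrier gene Slc25a4, named after its values were seen, stood at 0.94 and 0.85 in the wild type livers, 2.44 in Cyp3a-/- 1 and 0.80 in Cyp3a-/- 2. Its log2 difference of 0.72 ± 0.52 (SE, n = 2 per genotype, limma adjusted p = 0.679) was 1.54 without Cyp3a-/- 2 and -0.10 without Cyp3a-/- 1, so it rested on 1 liver. Slc25a5, the related carrier gene, differed by 0.24 ± 0.19.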
